A study of Mus musculus with 16 samples.

Results

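Histone variants are histones whose genes can be transcribed outside S phase and whose proteins replace the canonical histones in particular stretches of chromatin. The variant genes H3f3b, H3f3a, H2afz, H2afx and H2afv were looked for among the probe sets of one mouse microarray platform by gene symbol, with the newer names (H2az1 for H2afz, H2ax for H2afx, H2az2 for H2afv) accepted. The genes were selected on these same data, because an H3f3b probe set was among the most strongly falling signals after growth factor addition, so its change with time is a description here and no test is given for it. In all, 14 of 45101 probe sets carried a member's symbol, and they stood for these 5 genes. Of the 14 probe sets, 7 listed 1 gene symbol and 7 listed several.

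The arrays measured total RNA of cultured mouse aortic smooth muscle cells, 8 arrays from Hey2 knockout cells and 8 from wild-type cells. Hey2 is a transcriptional repressor that acts downstream of Notch signalling in the vessel wall. Both genotypes were on a mixed C57BL/6 and 129SvJ background, were used at passage 10-20, and came from aortas freed of adventitia, whose cells the labels describe as stained for sm alpha actin and calponin to check purity. All cells were starved of serum for 48 hours, then received 5 ng/ml human PDGF-BB, the platelet-derived growth factor that drives smooth muscle cells to divide and migrate. Each genotype was sampled once at 0, 15, 30, 60, 120, 180, 240 and 480 min. The number of animals or isolates behind each genotype and the knockout allele are not stated in the labels, and cells kept without PDGF-BB over the same times were not analysed here. Because each genotype and time has a single array, the p-values rest on how the knockout minus wild-type difference varies from time to time, a spread that may be technical.

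H3f3a and H3f3b encode the same protein, histone H3.3, from separate genes with different promoters and untranslated regions. H3.3 is placed at active genes and enhancers by the HIRA complex, and at heterochromatin and telomeres by ATRX and DAXX. H2afz and H2afv encode H2A.Z.1 and H2A.Z.2, close relatives that mark the nucleosomes beside transcription start sites and are inserted by the SRCAP and p400 remodelling complexes. H2afx encodes H2A.X, which is phosphorylated beside DNA double-strand breaks. In dividing cells most histone protein comes from the replication-coupled histone genes, whose messages end in a stem-loop and not in a poly(A) tail. The messages of the H3.3 and H2A.Z genes are polyadenylated.

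The promoters are shown because the probe sets of these genes moved apart, with one H3f3b signal falling soon after PDGF-BB and the H2afz signals separating the genotypes. RefSeq promoters of build GRCm38.p6 were found for 4 of the 5 measured genes, and the 250 bases before each transcription start are printed, 5′ to 3′ on the gene's strand. H3f3b lies at chr11:116024505-116024754 on the minus strand, H3f3a at chr1:180813606-180813855 on the minus strand, H2afz at chr3:137864237-137864486 on the plus strand and H2afv at chr11:6444444-6444693 on the minus strand. Capitals mark CCAAT on either strand (ATTGG on the strand printed), the box bound by NF-Y in many promoters of cell cycle and histone genes.
H3f3b: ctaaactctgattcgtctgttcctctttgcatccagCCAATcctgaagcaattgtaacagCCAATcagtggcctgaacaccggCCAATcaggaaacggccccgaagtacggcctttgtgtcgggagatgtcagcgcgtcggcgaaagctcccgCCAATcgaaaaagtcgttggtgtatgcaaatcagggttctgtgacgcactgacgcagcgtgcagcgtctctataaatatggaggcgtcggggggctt
H3f3a: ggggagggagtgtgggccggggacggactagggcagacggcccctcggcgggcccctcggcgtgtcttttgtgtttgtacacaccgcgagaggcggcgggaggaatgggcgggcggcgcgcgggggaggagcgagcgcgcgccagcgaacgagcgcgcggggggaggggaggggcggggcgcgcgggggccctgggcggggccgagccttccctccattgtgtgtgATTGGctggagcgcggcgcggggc
H2afz: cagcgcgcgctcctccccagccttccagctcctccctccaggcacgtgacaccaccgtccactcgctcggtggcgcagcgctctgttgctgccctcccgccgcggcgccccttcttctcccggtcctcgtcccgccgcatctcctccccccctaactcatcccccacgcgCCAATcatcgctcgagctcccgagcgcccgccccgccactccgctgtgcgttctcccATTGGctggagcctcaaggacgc
H2afv: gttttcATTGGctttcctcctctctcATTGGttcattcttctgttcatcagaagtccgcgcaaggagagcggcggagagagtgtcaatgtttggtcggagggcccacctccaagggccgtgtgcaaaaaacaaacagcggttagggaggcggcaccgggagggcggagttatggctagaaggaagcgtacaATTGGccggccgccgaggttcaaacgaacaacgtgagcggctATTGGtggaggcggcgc
The H3f3b window held 4 CCAAT boxes, the H3f3a window 1, the H2afz window 2 and the H2afv window 4. Of 32851 promoters of the same length, 33.8% held at least 1, 10.1% at least 2 and 0.84% at least 4. The H3f3b window also held 2 copies of TGACG, the half-site of the cyclic AMP response element, searched on both strands, and the other 3 windows held 0. At least 2 copies were found in 3.9% of promoters. TTTGAA, the core of the cell cycle homology region, was found once in the H2afv window and in 0 copies in the other 3, against 16% of promoters with at least 1. No overlap between the motifs was scored, and a match of letters is a description of the window only.

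The deposited signals were linear intensities on arrays of unequal brightness, so all arrays were quantile normalized, and differences are given on a log2 scale after an offset was added to each signal. A probe set was called at an adjusted p under 0.05 in the limma fit over 31922 tested probe sets. All 14 histone variant probe sets were tested: 13 were above the filter on low signals on all 16 arrays and the H3f3a probe set 1442087_at on 15. Levels of different probe sets cannot be set against each other, only their changes.

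Facts of the arrays that bear on the values below are the following. The Hey2 probe set 1418106_at ran between 23.3 and 63.3 in knockout cells and between 14.04 and 113.3 in wild-type cells, with a log2 difference of -0.19 (SE 0.31, adjusted p = 0.705). It therefore does not check the knockout labels, and its place relative to the deletion was not analysed here. In the knockout, 5 of 6 measured smooth muscle markers were lower. Their summed signal ran from 6513.1 to 9548.9 in knockout arrays and from 12335.6 to 16348.5 in wild-type arrays, and Myh11, the smooth muscle myosin heavy chain, stayed under the filter on every knockout array. All 5 mesothelial markers were higher in the knockout, with sums of 9187.5 to 12532.0 in knockout arrays and 862.5 to 1040.7 in wild-type arrays. Of 4 fibroblast markers, 2 were higher in the knockout (Thy1 by 3.12 and Dcn by 0.56) and 1 was lower (Lum, at -3.11), with sums of 2686.2 to 4932.5 in knockout arrays and 1761.4 to 6722.4 in wild-type arrays. Over all genes 29.6% were called between genotypes. Endothelial and leukocyte markers, with 2 of 4 genes measured in each list, had sums of 30.9 to 64.1 and 32.2 to 52.8 in knockout arrays and of 36.1 to 80.4 and 30.9 to 69.7 in wild-type arrays. The wild-type arrays labelled 60 and 480 min stood apart from the time order. The wild-type 60 min array correlated with the knockout 60 min array at r = -0.25 across probe sets and most closely with the knockout 480 min array (r = 0.48), and the wild-type 480 min array correlated with the knockout 480 min array at -0.29 and most closely with the knockout 60 min array (0.39). The other 6 times correlated at 0.33 to 0.43. Results are therefore given with these 2 times and without them where that matters.

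The signal of the H3f3b probe set 1430357_at, the only one listing H3f3b alone, fell in both genotypes within 30 min of PDGF-BB and stayed low to 480 min. In knockout cells it was 756.4, 410.1, 109.9, 62.3, 66.8, 77.7, 42.8 and 66.1 from 0 to 480 min. In wild-type cells it was 882.8, 230.0, 62.7, 47.7, 46.7, 59.3, 53.9 and 52.9. The 0 min array was the highest of its genotype in both series, the 15 min array came next, and from 60 min onwards no array read above 77.7. As a share of the 0 min signal, knockout cells held 54.2% at 15 min and 14.5% at 30 min. Wild-type cells held 26.05% at 15 min and 7.11% at 30 min. On the deposited scale, before any normalization here, these shares were 43.2% and 16.5% in knockout cells, against 21.4% and 2.54% in wild-type cells, where the 30 min array was the dimmest of all. The position of the probes of 1430357_at in H3f3b was not analysed here, so which transcript of the gene they read is not known. In the bulk RNA of a culture, fewer cells that make a message and less message per cell cannot be told apart.

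Averaged over both genotypes, the log2 change of 1430357_at from 0 min was -2.80 (SE 0.24) at 15 to 60 min, -3.74 (SE 0.24) at 120 to 240 min and -3.68 (SE 0.29) at 480 min. Among the 31922 tested probe sets it ranked 1 by the size of its fall at 15 to 60 min, 3 at 120 to 240 min and 1 at 480 min. These are the values that chose the genes. Over all tested probe sets 0.00627% were called at 15 to 60 min, 7.84% at 120 to 240 min and 0.213% at 480 min, and of the other 13 histone variant probe sets 0 were called in any of these windows with all arrays. No call is given for 1430357_at, since these windows chose it. Each change from 0 min rests on 1 array of each genotype at 0 min. The ratio of the 3′ to the 5′ probe set of Actb, a measure of RNA and cRNA integrity, was 2.89 in knockout cells and 2.75 in wild-type cells at 0 min. At 15 and 30 min it was 3.71 and 1.95 in knockout cells and 2.41 and 3.88 in wild-type cells. At 120 to 240 min it was 1.54 to 2.44 in knockout cells and 1.53 to 1.84 in wild-type cells, and its part in the fall was not tested.

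The 5 probe sets that list both H3.3 genes did not share that fall. They also list H3f3c, Gm12657, Gm6749 and Gm10257, so the signal of a single gene cannot be read from them. 1420376_a_at read 3869.4, 4439.9, 5489.5, 5497.0, 5681.9, 4879.5, 4864.4 and 4430.2 in knockout cells from 0 to 480 min, and 4738.3, 5253.7, 6141.9, 4795.0, 6355.0, 5243.1, 5281.5 and 6457.6 in wild-type cells. 1423262_a_at read 3979.9, 3610.8, 3724.3, 3615.5, 3507.0, 3013.1, 2923.8 and 2372.8 in knockout cells, and 4818.6, 4455.3, 4539.0, 2323.1, 3986.7, 3226.2, 2836.8 and 4864.4 in wild-type cells. The signals of 1420376_a_at were higher at every later time than at 0 min in both genotypes, whereas those of 1423262_a_at were lower at every later time in knockout cells and at 6 of the 7 later times in wild-type cells.

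The 5 shared probe sets thus went different ways with time. At 120 to 240 min the log2 change from 0 min was 0.32 for 1420376_a_at (SE 0.11) and 0.21 for 1455725_a_at (SE 0.11). It was -0.44 for 1423262_a_at (SE 0.22), -0.46 for 1423263_at (SE 0.24) and -0.18 for 1434127_a_at (SE 0.12). None of the 5 was called with all arrays, whereas 4 of the 5, all but 1434127_a_at, were called without the 60 and 480 min arrays, with changes of 0.33, 0.22, -0.44 and -0.46. The log2 change of 1430357_at minus the median change of the 5 on the same array was -0.75, -2.73, -3.44, -3.23, -3.23, -3.87 and -3.35 at 15 to 480 min in knockout cells, and -1.89, -3.85, -3.41, -3.94, -3.46, -3.60 and -3.96 in wild-type cells. On all 14 later arrays the change of the probe set that lists H3f3b alone was below that of each shared probe set.

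**Figure D1:**
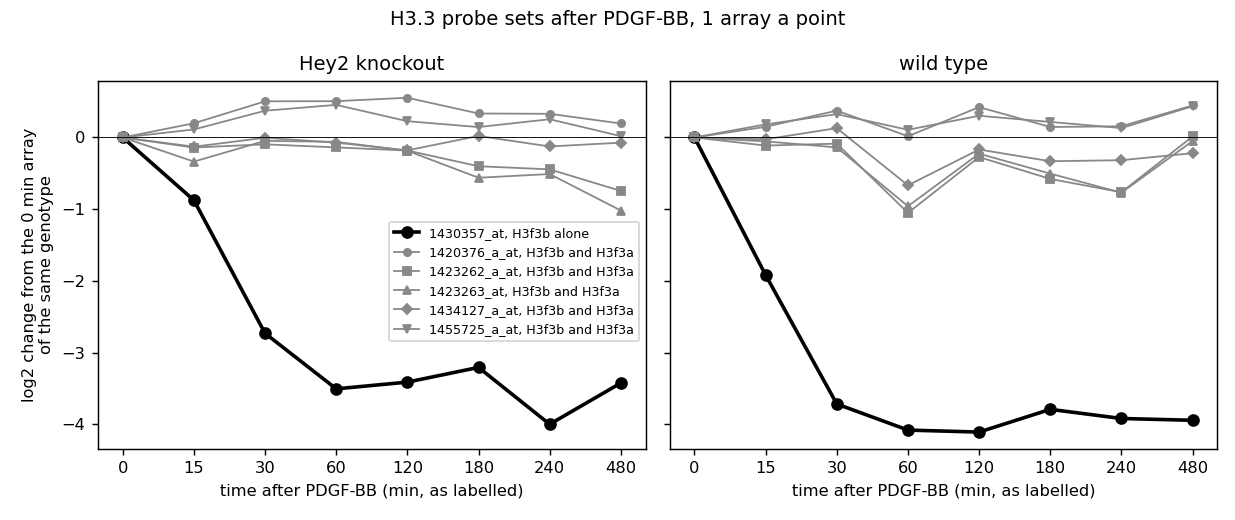
Log2 change from the 0 min array of the same genotype (vertical axis) by labelled time after PDGF-BB (horizontal axis, min, evenly spaced) in Hey2 knockout cells (left) and wild-type cells (right), 1 array a point, for the H3f3b probe set (black) and the 5 probe sets shared with H3f3a (grey). The black line drops to -2.73 in knockout cells and -3.72 in wild-type cells by 30 min, while the grey lines stay between -1.05 and 0.55.

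Between genotypes the H3f3b probe set 1430357_at differed by a log2 of 0.32 (knockout minus wild type, SE 0.14, adjusted p = 0.134), higher in the knockout at 6 of 8 times. At 15 min the difference was 0.82 and at 0 min -0.22. The mean log2 signal over the 8 times was 6.93 ± 1.42 in knockout cells and 6.61 ± 1.47 in wild-type cells (SD, n = 8 times), so the groups overlapped. The test of a different course between genotypes had an adjusted p of 0.898 for this probe set.

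For the shared H3.3 probe sets the genotype differences were small. They were -0.18 for 1420376_a_at (SE 0.07, adjusted p = 0.075), -0.19 for 1423262_a_at and 1423263_at (SE 0.13 and 0.15), -0.01 for 1434127_a_at and -0.02 for 1455725_a_at, and none was called with all 16 arrays. The first 3 were called lower in the knockout without the 60 and 480 min arrays, at -0.18 (adjusted p = 0.0044), -0.19 (adjusted p = 0.018) and -0.18 (adjusted p = 0.046). On the deposited scale all 5 were positive, at 0.13 to 0.26, and there the median of all tested probe sets was itself shifted to 0.25, against -0.03 after quantile normalization. Relative to that shift, 1420376_a_at, 1423262_a_at and 1423263_at lay below the median on both scales.

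The 5 probe sets with 1 gene symbol whose log2 signals ran most like those of the H3f3b probe set over the 16 arrays belonged to Tmem80 (Pearson r = 0.92), 2810410L24Rik (0.89), Tpgs1 (0.89), Fam214a (0.88) and Rere (0.88). Their log2 changes at 120 to 240 min were -0.61, -1.66, -0.79, -1.94 and -1.21. All were smaller than that of 1430357_at, which was chosen for its fall, so nothing is read from that comparison. The points are 16 arrays of 2 genotypes at the same 8 times. Over the same arrays the shared H3.3 probe sets had r = -0.60 and -0.57 (1420376_a_at and 1455725_a_at) and 0.45, 0.42 and 0.38 (1423262_a_at, 1423263_at and 1434127_a_at) with 1430357_at.

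The only probe set listing H3f3a alone, 1442087_at, was dim. It read 28.5, 36.3, 36.1, 21.9, 22.0, 22.4, 23.3 and 42.2 in knockout cells from 0 to 480 min, and 45.1, 35.9, 31.6, 32.7, 16.9, 16.6, 3.3 and 18.3 in wild-type cells. These signals lie close to the filter at 16, 1 of them below it, and the genotypes overlapped. The genotype difference was 0.32 (SE 0.25, adjusted p = 0.388) and the log2 change at 120 to 240 min was -0.98 (SE 0.40).

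Between genotypes, 4 of the 14 probe sets were called, and all 4 were H2afz probe sets that were higher in the knockout. Among all tested probe sets 25.6% were called between genotypes, so the share of histone variant probe sets called in either direction was near the background. Of all tested probe sets 13.4% were called and higher, a smaller share than the 4 of 14. The 4 probe sets read the same gene and are not independent. The genotype signals did not overlap over the 8 times for 3 of the 14, against 6.49% of all tested probe sets. Without the 60 and 480 min arrays 8 of the 14 were called, 4 higher and 4 lower, against 33.7% of all tested probe sets.

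**Figure D2:**
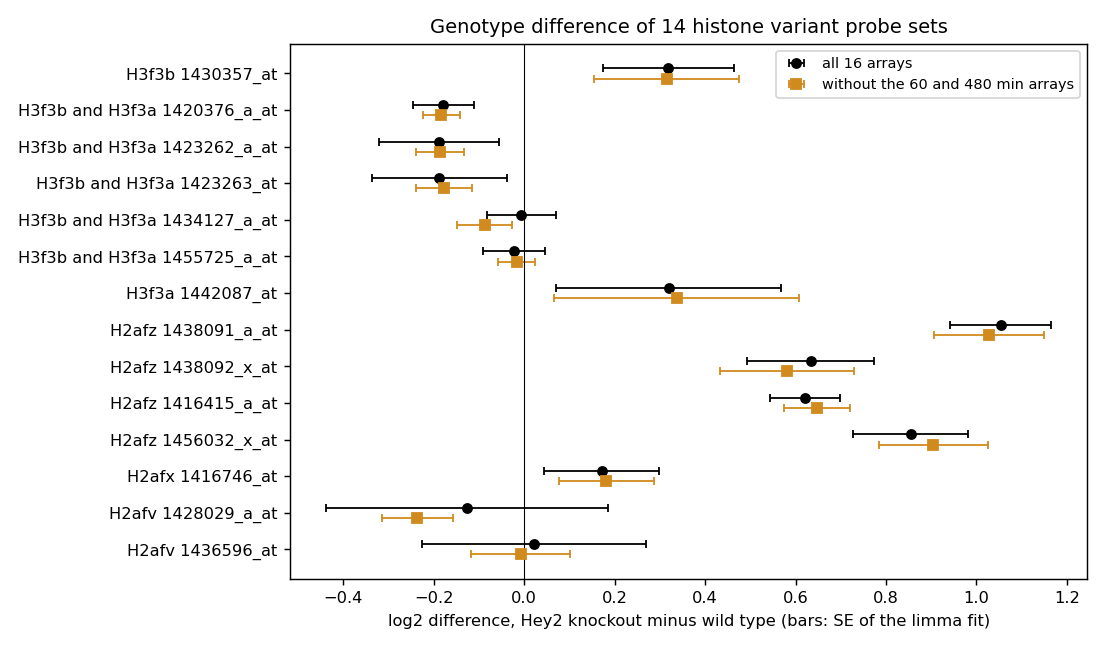
Log2 difference between Hey2 knockout and wild-type cells (horizontal axis; positive is higher in the knockout) for each of the 14 histone variant probe sets, with all 16 arrays (circles) and without the 60 and 480 min arrays (squares); bars are the standard error of the limma fit. The 4 H2afz probe sets lie between 0.58 and 1.05 on both sets of arrays, and the other 10 lie between -0.24 and 0.34.

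H2afz, the gene of H2A.Z.1, was higher in the knockout by each of its 4 probe sets. The probe set 1438091_a_at, which lists H2afz alone, read 3360.6, 3586.5, 3782.2, 3826.7, 4510.7, 5171.6, 5268.1 and 4776.6 in knockout cells from 0 to 480 min, against 2120.4, 2337.9, 2460.3, 1888.8, 1633.6, 1914.8, 2098.4 and 1943.0 in wild-type cells. The lowest knockout array was above the highest wild-type array. The mean log2 signal was 12.05 ± 0.25 in knockout cells and 10.99 ± 0.19 in wild-type cells (SD, n = 8 times), and the difference of 1.05 (SE 0.11) had an adjusted p of 3.71e-05.

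The second probe set of H2afz alone, 1438092_x_at, differed less. It read 2181.3, 2009.9, 2341.1, 2011.1, 2579.2, 3061.8, 3081.5 and 3198.9 in knockout cells, against 1986.0, 2037.6, 2064.7, 1368.9, 1262.3, 1375.8, 1549.4 and 1538.7 in wild-type cells. Knockout and wild-type cells read nearly the same up to 30 min and separated from 60 min on. The difference averaged over times was 0.63 (SE 0.14, adjusted p = 0.006), with the knockout higher at 7 of 8 times.

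The probe sets shared between H2afz and the predicted gene Gm8203 gave the same direction. 1416415_a_at read a lowest, median and highest signal of 4133.2, 5506.6 and 7395.7 in knockout cells, against 3141.6, 3450.1 and 4122.2 in wild-type cells, with a difference of 0.62 (SE 0.08, adjusted p = 1.33e-04). 1456032_x_at read 799.7, 1153.5 and 1546.7 in knockout cells, against 526.1, 627.3 and 743.6 in wild-type cells, with a difference of 0.85 (SE 0.13, adjusted p = 4.7e-04). In both, every knockout array was above every wild-type array. The 4 differences stayed positive and called under every scaling, offset and filter tried and with any 1 time left out, between 0.56 and 1.41 in all, where the highest value came from the deposited scale with its shift of 0.25.

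The genotype gap in H2afz was wider at the later times. For 1438091_a_at it was 0.66, 0.62, 0.62, 1.02, 1.46, 1.43, 1.33 and 1.30 log2 units at 0 to 480 min. For 1438092_x_at it was 0.13, -0.02, 0.18, 0.55, 1.03, 1.15, 0.99 and 1.05. The mean gap at 120 to 480 min exceeded that at 0 to 60 min by 0.65, 0.84, 0.40 and 0.72 for 1438091_a_at, 1438092_x_at, 1416415_a_at and 1456032_x_at, yet no probe set of any gene passed the limma test of a genotype by time interaction (0% of all tested called). The lowest adjusted p among the 14 was 0.460, for 1438092_x_at. At an unadjusted p under 0.05 there were 6 of the 14 and 3234 of 31922. Leaving out the 60 and 480 min arrays, 0 of the 14 were called, against 0.00972% of all tested. At an unadjusted p under 0.05 there were then 5 of the 14 and 1973 of 30859.

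**Figure D3:**
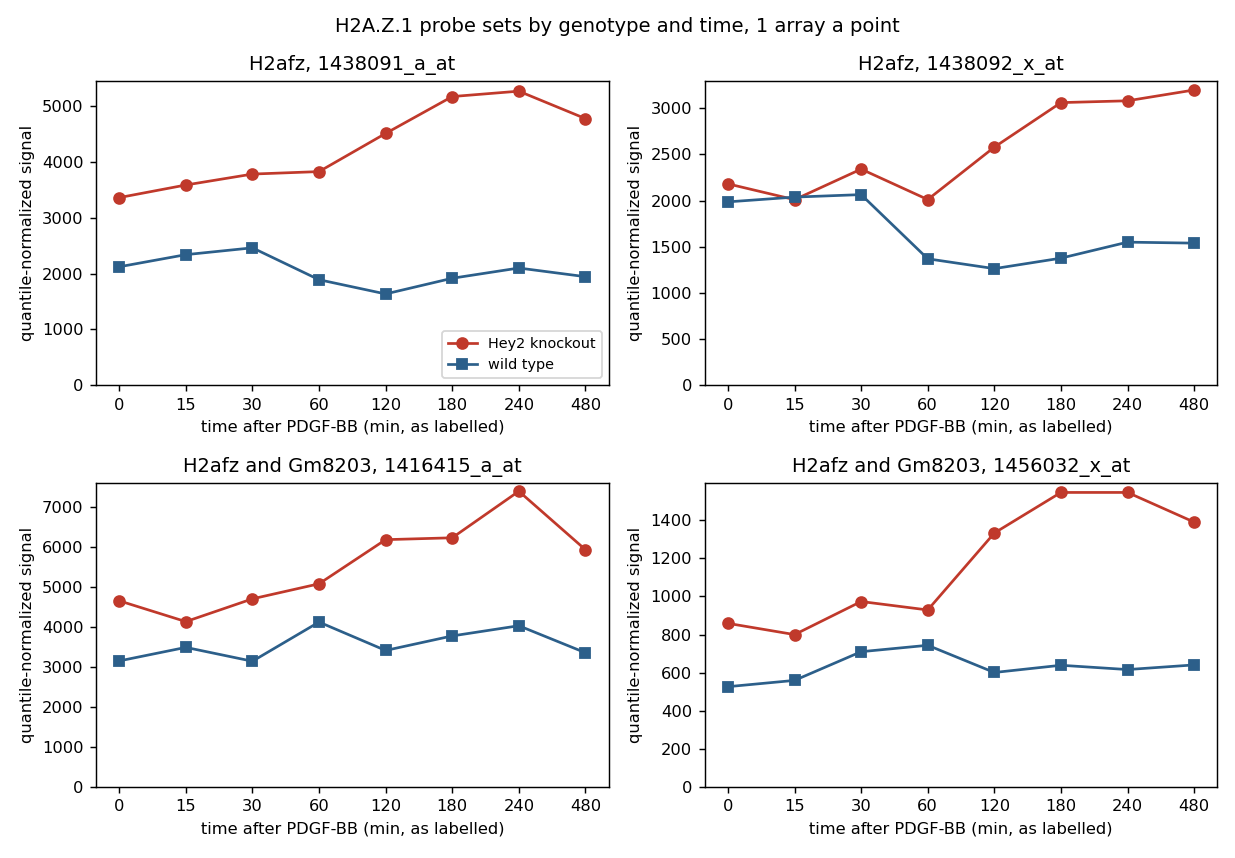
Quantile-normalized signal (vertical axes, linear, from 0) of the 4 H2afz probe sets by labelled time after PDGF-BB (horizontal axes, min, evenly spaced) in Hey2 knockout cells (circles) and wild-type cells (squares), 1 array a point. In 1438091_a_at, 1416415_a_at and 1456032_x_at all 8 knockout arrays are above all 8 wild-type arrays, and in 1438092_x_at the lines part after 30 min.

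As background, dividing cells hold more H2afz message than resting ones, and the proliferation genes are given beside it. Of 23 measured proliferation genes, 14 were higher and 1 was lower in the knockout, with a median difference of 0.87, against 29.6% of 14299 genes called and a median of -0.02. Mki67, the marker of cycling cells, was higher by 2.01 (SE 0.22, adjusted p = 4.81e-05). Rrm2, a subunit of ribonucleotide reductase, was higher by 1.97 (SE 0.13, adjusted p = 7.81e-07) and Ccnb2, a mitotic cyclin, by 1.75 (SE 0.19, adjusted p = 3.73e-05). Mcm6, a subunit of the replicative helicase, was lower, at -0.87 (SE 0.07, adjusted p = 7.32e-06). The summed signal of the 23 ran from 9761.0 to 12392.9 in knockout arrays and from 8279.0 to 11499.9 in wild-type arrays, so the sums overlapped. Bright probe sets weigh most in such a sum, and the brightest gene of the list differed by -0.06. The mesothelial and smooth muscle markers separated the genotypes as well (sums above), and the part of proliferation or of cell type in the H2afz difference was not tested.

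H2afv, the gene of H2A.Z.2, had lower signals at the later times. Its probe set 1428029_a_at read 2045.4, 2325.8, 2003.2, 1919.1, 1534.0, 1541.2, 1035.1 and 691.1 in knockout cells from 0 to 480 min, and 2804.3, 2856.9, 2687.8, 404.2, 1912.5, 1473.5, 1012.1 and 2494.9 in wild-type cells. Signals from 120 min on were below those of 0 to 30 min in both genotypes. The wild-type array labelled 480 min, at 2494.9, read close to the early arrays, and the one labelled 60 min was the lowest of all 16. The second probe set, 1436596_at, read 323.4, 315.9, 318.7, 272.3, 285.0, 250.8, 157.2 and 129.0 in knockout cells, and 390.3, 347.7, 355.7, 83.7, 296.5, 238.6, 109.4 and 354.3 in wild-type cells. Its wild-type 60 min array was again the lowest of the 16, and its 480 min array read like an early one.

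Averaged over genotypes, the log2 change at 120 to 240 min was -0.79 for 1428029_a_at and -0.74 for 1436596_at, with SE of 0.51 and 0.40 with all arrays and of 0.11 and 0.16 without the 60 and 480 min arrays. Without those arrays 10 of the 14 histone variant probe sets, the H3f3b one that chose the genes among them, were past the threshold at 120 to 240 min, 5 higher and 5 lower, against 25.7% of all tested probe sets. The genes were selected on this contrast, so nothing is read from that count. Of the H2afz probe sets, the 2 shared with Gm8203 were among the 5 higher, at 0.38 (1416415_a_at) and 0.50 (1456032_x_at). The 2 of H2afz alone were not past the threshold, at 0.19 (1438091_a_at) and -0.05 (1438092_x_at). The genotype difference of H2afv was -0.13 (SE 0.31, adjusted p = 0.811) for 1428029_a_at and 0.02 (SE 0.25, adjusted p = 0.961) for 1436596_at. It was -0.24 (SE 0.08, adjusted p = 0.034) and -0.0073 (SE 0.11, adjusted p = 0.967) without the 60 and 480 min arrays, where the first of the 2 was called lower in the knockout.

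The balance between the H2A.Z genes was followed as the mean log2 signal of the 2 probe sets of H2afz alone minus that of the 2 of H2afv, as a change from 0 min. In knockout cells it was -0.09, 0.16, 0.20, 0.63, 0.94, 1.57 and 1.96 from 15 to 480 min. In wild-type cells it was 0.16, 0.23, 2.12, -0.04, 0.48, 1.44 and -0.09, with the 2.12 and the -0.09 on the arrays labelled 60 and 480 min. At 180 and 240 min the balance lay further towards H2afz than at 0 min in both genotypes, by 1.57 in knockout cells and 1.44 in wild-type cells at 240 min. In knockout cells both H2afz signals were higher and both H2afv signals lower at 240 min than at 0 min. In wild-type cells both H2afv signals were lower too, but the signals of 1438091_a_at and 1438092_x_at at 240 min were not above those at 0 min. The probe sets shared with Gm8203, which the balance leaves out, read 4030.1 (1416415_a_at) and 616.0 (1456032_x_at) at 240 min in wild-type cells, above 3149.7 and 526.1 at 0 min.

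**Figure D4:**
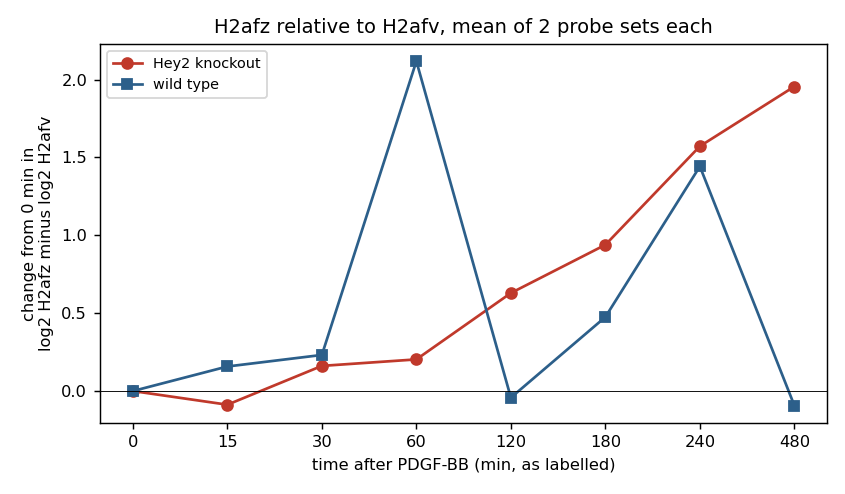
Change from the 0 min array in log2 H2afz minus log2 H2afv (vertical axis; mean of 2 probe sets of each gene) by labelled time after PDGF-BB (horizontal axis, min, evenly spaced) in Hey2 knockout cells (circles) and wild-type cells (squares), 1 array a point. The knockout line climbs to 1.96 at 480 min, and the wild-type line reaches 1.44 at 240 min but stands at 2.12 and -0.09 on the arrays labelled 60 and 480 min.

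H2afx, the gene of the DNA damage variant H2A.X, had 1 probe set, 1416746_at. It read 250.1, 239.9, 308.4, 260.8, 247.4, 308.6, 314.2 and 370.8 in knockout cells from 0 to 480 min, and 179.4, 197.1, 228.5, 346.2, 273.4, 303.1, 304.8 and 230.6 in wild-type cells. The genotypes overlapped, with the knockout higher at 6 of 8 times and the wild-type array labelled 60 min the highest of its series. The genotype difference was 0.17 (SE 0.13, adjusted p = 0.366) and the log2 change at 120 to 240 min was 0.45 (SE 0.21). That change was not called with all arrays. It was called without the 60 and 480 min arrays, at 0.44 (SE 0.15, adjusted p = 0.045), when 25.7% of all tested probe sets were.

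**Figure D5:**
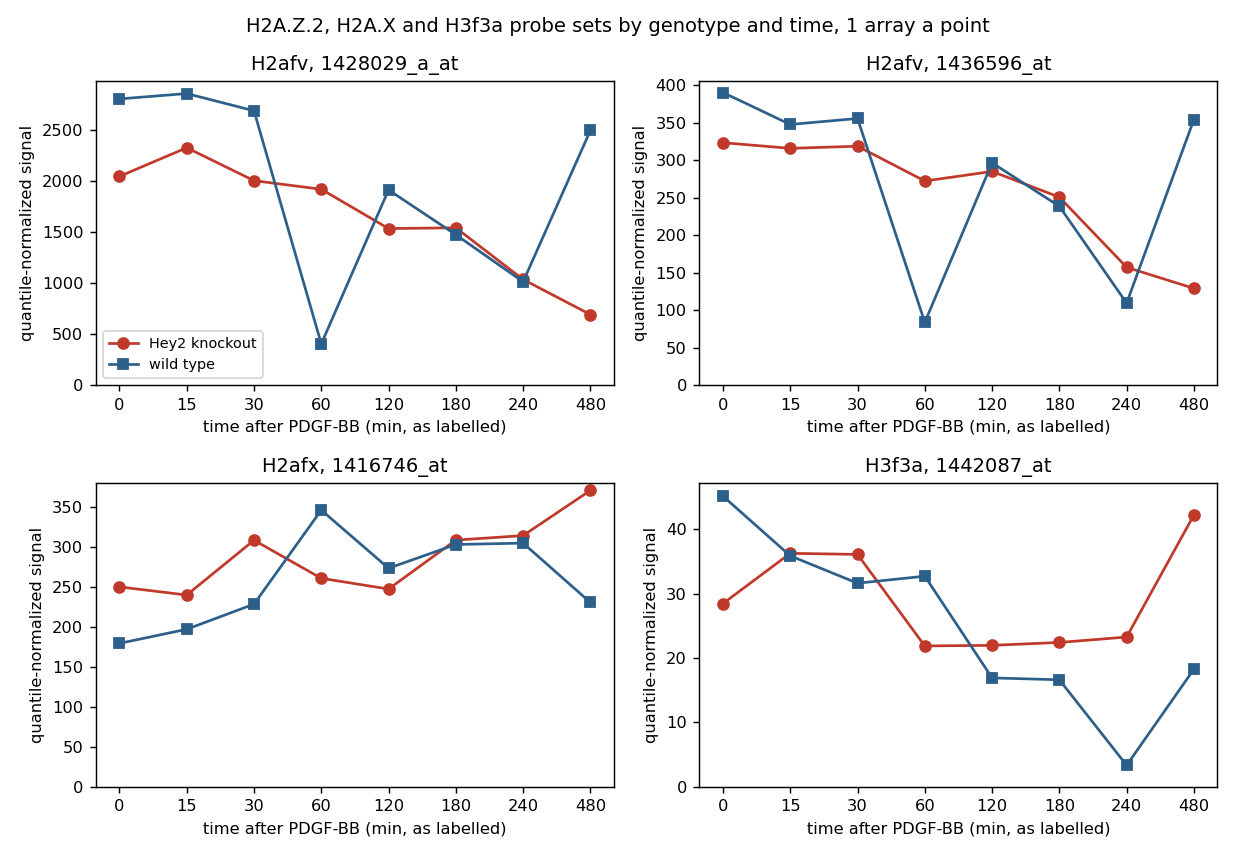
Quantile-normalized signal (vertical axes, linear, from 0) of the 2 H2afv probe sets, the H2afx probe set and the H3f3a probe set by labelled time after PDGF-BB (horizontal axes, min, evenly spaced) in Hey2 knockout cells (circles) and wild-type cells (squares), 1 array a point. Both H2afv panels show the wild-type arrays labelled 60 and 480 min off the course of the others, at 404.2 and 2494.9 for 1428029_a_at.

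The factors that place these variants were read from gene lists, with each gene represented by its brightest tested probe set. Of 10 genes for H3.3 deposition, 3 were higher and 3 lower in the knockout (median 0.06), against 29.6% of all genes called. Asf1b, a histone chaperone of dividing cells, was higher by 1.01 (SE 0.15, adjusted p = 4.03e-04) and Atrx, the remodeller that works with Daxx, by 0.47 (adjusted p = 0.0038). Cabin1, a subunit of the HIRA complex, was lower at -0.52 (adjusted p = 0.0036), and Dek, a chromatin protein that controls H3.3 loading, at -0.38 (adjusted p = 0.0042). The third of each direction were Ubn1 (0.68, adjusted p = 0.015) and Ubn2 (-0.47, adjusted p = 0.020), both ubinuclein subunits of the HIRA complex. At 120 to 240 min 0 of the 10 were called with all arrays, when 9.42% of all genes were. Without the 60 and 480 min arrays 1 was higher there than at 0 min (Hira, 0.77, adjusted p = 0.0093) and 4 were lower (Atrx, Dek, Ubn2 and Asf1a, at -0.42 to -0.59). Of all 14299 genes, 1830 were called higher and 2644 lower in that window without those arrays. Of 16 genes for H2A.Z exchange, 0 were higher and 2 lower in the knockout, Brd8 (-0.41, adjusted p = 0.014) and Ep400 (-0.32, adjusted p = 0.039), both parts of the p400 complex. Brd8 also fell at 120 to 240 min, by 0.79 on the log2 scale (SE 0.17, adjusted p = 0.020), the only gene of that list called there with all arrays. Leaving out the 60 and 480 min arrays, 3 of the 16 were higher at 120 to 240 min (Ino80, Ruvbl1 and Ruvbl2, at 0.37 to 0.87) and 2 lower (Brd8 and Vps72, at -0.79 and -0.47). Without the 60 and 480 min arrays 2 exchange genes were higher in the knockout (Kat5 and Actl6a) and 4 lower (Brd8, Ep400, Trrap and Ruvbl1). Of all 14299 genes, 2854 were then called higher and 2749 lower in the knockout.

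Other histone genes were looked at in the same way. With few genes in each list, their shares called between genotypes with all arrays were near the 29.6% of all genes. Of 5 other variants, Cenpa, the centromeric H3, was higher in the knockout by 1.33 (SE 0.23, adjusted p = 0.0015), and the macroH2A genes, H2aj and H1f10 were not called. Of the replication-coupled histone genes, 8 of 50 had a tested probe set with 1 symbol, and 2 of these were higher in the knockout, H2bc21 by 1.26 (SE 0.15, adjusted p = 9.61e-05) and H2ac19 by 0.89 (SE 0.15, adjusted p = 9.82e-04). None of the 13 was called at 120 to 240 min with all arrays, when 9.42% of all genes were. Without the 60 and 480 min arrays 1, H2bc21, was called there, at -0.78 (adjusted p = 0.0085), against 1830 genes higher and 2644 lower of 14299. Of 9 genes that process histone messages, Sympk, a scaffold of the cleavage complex, was higher by 0.55 (adjusted p = 0.0031). Lsm11, a subunit of the U7 particle, was lower at -1.27 (SE 0.22, adjusted p = 0.0014), and Lsm10, its partner, fell by 0.52 at 120 to 240 min (adjusted p = 0.049). Cpsf3, the endonuclease of the cleavage complex, was called there as well once the 60 and 480 min arrays were left out, at -0.51 (adjusted p = 0.0027). Between genotypes without those arrays, 3 of the 9 were higher (Sympk, Cpsf3 and Cstf2) and 1 lower (Lsm11). Of the 8 replication-coupled genes 3 were then higher (H2bc21, H2ac19 and H3c11), against 2854 genes higher and 2749 lower of 14299.

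A list of 10 growth arrest genes is given beside the H3f3b fall, and a link between them was not tested. At 120 to 240 min 4 of the 10 fell and 1 rose, with a list median of -0.68, against 9.42% of all genes called and a median of -0.08. Txnip fell by 2.16 (SE 0.20, adjusted p = 2.10e-04), Ccng2 changed by -2.39 (SE 0.46, adjusted p = 0.012), Pik3ip1 by -2.87 (SE 0.56, adjusted p = 0.013) and Trp53inp1 by -1.77 (SE 0.48, adjusted p = 0.046), and Cdkn1a, the inhibitor p21, rose by 1.22 (SE 0.23, adjusted p = 0.012). These 5 were named after their values were seen. Between genotypes, 2 of the 10 were higher in the knockout and 1 was lower, a share near the 29.6% of all genes. Gadd45a, a stress-induced growth inhibitor, was higher by 1.03 (SE 0.11, adjusted p = 3.55e-05) and Klf9, a zinc finger factor, by 0.80 (adjusted p = 0.020), whereas Btg1, an antiproliferative factor, was lower at -0.29 (adjusted p = 0.012).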

How the data were processed

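The data were 16 arrays of mouse aortic smooth muscle cells, 8 Hey2 knockout and 8 wild type. The deposited values were linear signal intensities per probe set, which the authors computed using MAS5 according to the submitters' processing notes. Its version and any scaling target: not given in the sources used here. Because the 2% trimmed mean intensity ran from 81.0 to 342.5, arrays were quantile normalized. Values were log2(signal + 4.856), the 20th percentile, which understates changes of dim probe sets. Tested probe sets had a signal over 16 (40th percentile) on 3 or more arrays.

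The linear model (limma 3.58.1, R 4.3.3) held a genotype term and a level for each time, with 7 residual degrees of freedom, a variance trend on intensity, and p-values adjusted by Benjamini-Hochberg (threshold 0.05) over all tested probe sets, 31922 or, without the 60 and 480 min arrays, 30859. Time-matched arrays formed blocks, as the labels give each time once in each genotype. The interaction was genotype times a spline (2 degrees of freedom) of time, by F test. The code was tested on simulated data. The number of arrays, with no technical repeats, limits the precision.

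The members and gene lists were chosen with earlier results of these data known. Every probe set of the 5 genes is given, and 1 further gene looked for is not reported here; beyond them are named the 5 single-symbol probe sets most correlated with the falling H3f3b probe set, and from the lists at most 4 genes with the smallest genotype p, to which the genes behind counts of 5 or fewer were added after their values were seen. Lists used the brightest tested probe set of each of 14299 genes. Symbols came from the platform annotation, in which 34945 probe sets had 1 symbol, 932 several and 9160 none, beside 64 controls; promoters came from RefSeq, GRCm38.p6. Alternatives covered the scaling, offset, filter, variance trend, blocks, one probe set a gene and each time left out.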

Additional observations from a re-analysis of the deposited data

Results flagged for a closer look

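The H3f3a probe set 1442087_at was lowest on the wild-type 240 min array, at a log2 value of 3.04, against 4.42 for the nearest other wild-type array. The gap was 0.533 of the range of the 8 arrays, just above Dixon's critical value for 8 samples. The 8 arrays are different times, not repeats. This was 1 of 28 sets of 8 arrays looked at, and chance sets off about 1 in 20.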

How the results depend on the processing

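The 4 H2afz probe sets stayed called and higher in the knockout under every alternative in which they were tested. Of 691 alternative values of single probe sets, 642 kept their direction and side of the threshold. Without the 60 and 480 min arrays 10 probe sets were past the threshold at 120 to 240 min, against 25.7% of all tested. Between genotypes 8 were called there, 4 of them lower in the knockout, against 33.7% of all tested. The cause of these changes was not tested. With one probe set a gene 1 was called, and it was higher, since fewer probe sets were tested. With each time left out in turn, the probe sets lower in the knockout numbered 0 to 2 and those past the threshold at 120 to 240 min 1 to 3. Leaving out the 60 min arrays gave 2 and 3, and leaving out the 480 min arrays gave 2 at 120 to 240 min. The H3f3b probe set whose fall chose the genes is among those counted at 120 to 240 min, so nothing is read from those counts. With no replicate block (genotype alone) 4 were called between genotypes, as with it, and the block changed no call among the 14. Shares over all tested probe sets are not given for one probe set a gene, for each time left out or for no block. Nothing about the histone variant genes is therefore read from the counts under these settings.

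The following values changed sign, none of them called with all arrays. On the deposited scale, whose median genotype difference over all tested probe sets was 0.25, the genotype differences were 0.13 (1420376_a_at), 0.13 (1423262_a_at), 0.13 (1423263_at), 0.26 (1434127_a_at), 0.26 (1455725_a_at) and 0.20 (H2afv 1428029_a_at). The later minus the earlier genotype difference was there 0.092 (1420376_a_at), 0.018 (1455725_a_at) and 0.14 (H2afx), and with one trimmed mean 0.014 (H2afx). Without the 60 and 480 min arrays the genotype difference of H2afv 1436596_at was -0.0073, and the later minus the earlier difference was 0.10 (1420376_a_at), 0.21 (1423262_a_at), 0.15 (1423263_at), 0.0013 (1455725_a_at), 0.32 (H2afv 1428029_a_at) and 0.36 (H2afv 1436596_at). With each time left out, the genotype difference ran from -0.075 to 0.032 (1434127_a_at), -0.076 to 0.035 (1455725_a_at), -0.47 to 0.12 (H2afv 1428029_a_at) and -0.21 to 0.23 (H2afv 1436596_at), the later minus the earlier difference from -0.24 to 0.055 (H2afx) and -0.16 to 0.0012 (1420376_a_at), and the 120 to 240 min change of H2afz 1438092_x_at from -0.11 to 0.026. Dim probe sets, above all that of H3f3a, limit what could be seen.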
